A study of Mus musculus with 4 samples.

Results

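Cux2, Rorb, Pou3f1, Fezf2, Bcl11b, Tbr1, Neurod2, Neurod6 and Emx1 are 9 transcription factors that mark the projection neurons of the cerebral cortex. They were chosen by symbol, matched through the Entrez identifier, and all 9 were among the 12700 genes of the count table. The study set Ids knock-out (Ids-ko) mice, a model of Hunter syndrome (mucopolysaccharidosis type II), against wild type (wt) mice, all C57BL/6 and 9 months old. From each brain the neocortex (Cx) and an area holding midbrain, diencephalon and hippocampus (M) were taken, and the diencephalon included thalamus, hypothalamus and striatum. The 4 libraries are CxH and MH (Ids-ko) and CxWT and MWT (wt), each made of polyA RNA pooled from 7 mice and sequenced once on a SOLiD instrument. There was 1 library per condition and no replicate, so every interval and standard error (SE) below covers counting error only, and every test compares 2 libraries and not the conditions. Library-to-library differences, whole tissue composition and the labels cannot be told apart, and in such bulk RNA fewer cells of a type and less RNA per cell cannot be told apart either.

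The glutamatergic projection neurons of the neocortex lie in layers, and each layer sends its axons to its own targets. Upper layer cells connect cortical areas with each other, whereas cells of the deep layers project to the brain stem and spinal cord (layer V) or to the thalamus (layer VI). Transcription factors set up these identities in the embryo, and several of them stay on in the adult. Cux2 is a homeodomain factor of the upper layers, Rorb is a nuclear receptor of layer IV, and Pou3f1 is a POU factor of upper layers and layer V. Fezf2 and Bcl11b are zinc finger factors of the layer V neurons that project out of the forebrain, and Tbr1 is a T-box factor of layer VI. The basic helix-loop-helix factors Neurod2 and Neurod6 and the homeodomain factor Emx1 belong to the projection neuron lineage as a whole. Bcl11b is also a factor of the medium spiny neurons of the striatum, and Cux2, Rorb, Pou3f1 and Tbr1 are known from other brain regions as well.

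The sequences upstream of 4 of the genes are shown here because these windows lie outside the gene's annotated exons and because the 4 genes lie at opposite ends of what follows. Rorb had the smallest ratio in CxH vs. CxWT and MH vs. MWT, and Fezf2, Neurod2 and Neurod6 were among the 5 factors with the largest. They were taken from RefSeq, written from 5′ to 3′ on the strand of the gene, ending just before its start. They were placed on NCBI37/mm9 by an exact match that occurred once on the gene's chromosome. Capitals mark each E-box, CANNTG, the motif to which basic helix-loop-helix factors such as Neurod2 and Neurod6 bind, and a match on one strand is a match on the other.
Rorb, chr19:19185687-19185936, minus strand: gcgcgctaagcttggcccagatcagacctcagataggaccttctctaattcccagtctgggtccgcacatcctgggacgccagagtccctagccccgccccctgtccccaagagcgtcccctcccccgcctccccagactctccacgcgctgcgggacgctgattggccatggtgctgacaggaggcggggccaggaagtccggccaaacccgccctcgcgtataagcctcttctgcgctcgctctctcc
Fezf2, chr14:13178380-13178629, minus strand: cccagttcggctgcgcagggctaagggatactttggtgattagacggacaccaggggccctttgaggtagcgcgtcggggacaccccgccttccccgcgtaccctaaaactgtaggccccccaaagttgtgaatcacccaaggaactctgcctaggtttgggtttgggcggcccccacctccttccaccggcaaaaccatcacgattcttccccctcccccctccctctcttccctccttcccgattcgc
Neurod2, chr11:98190963-98191209, minus strand: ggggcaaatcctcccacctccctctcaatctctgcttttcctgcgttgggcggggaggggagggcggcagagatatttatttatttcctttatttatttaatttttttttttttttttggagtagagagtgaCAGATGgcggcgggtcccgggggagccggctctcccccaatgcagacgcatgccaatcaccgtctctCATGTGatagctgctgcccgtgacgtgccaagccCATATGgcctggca
Neurod6, chr6:55631258-55631507, minus strand: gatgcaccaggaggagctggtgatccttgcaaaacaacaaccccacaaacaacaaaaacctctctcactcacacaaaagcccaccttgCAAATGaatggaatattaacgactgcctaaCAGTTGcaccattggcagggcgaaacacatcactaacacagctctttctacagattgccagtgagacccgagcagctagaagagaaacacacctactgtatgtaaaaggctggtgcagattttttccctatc

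The Neurod2 window held 3 E-boxes and the Neurod6 window 2, and the Rorb and Fezf2 windows held 0. RefSeq has a second Rorb start, inside the gene, and its window at chr19:19075608-19075857 held 2 E-boxes, 4 CpG and 39.2% GC. Of all 32851 RefSeq promoter windows of 250 bases, 66.2% held at least 1 E-box. The Rorb window shown was the richest of the 4 in CpG, with 18 CpG dinucleotides and 66.0% GC, followed by Fezf2 with 14 and 61.2%, Neurod2 with 11 and 53.0%, and Neurod6 with 3 and 46.0%. The median over all windows was 6 CpG and 52.4% GC.

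The genes lie on different chromosomes except for Neurod6 and Emx1, which are both on chromosome 6. On NCBI37/mm9, with the GENCODE vM1 annotation, Cux2 spans chr5:122308396-122500111, Rorb chr19:19005095-19185686 and Pou3f1, which has 1 exon, chr4:124334896-124337899. Fezf2 spans chr14:13174406-13178379, Bcl11b chr12:109148613-109241812 and Tbr1 chr2:61640987-61652171. Neurod2 spans chr11:98186729-98190962, Neurod6 chr6:55627812-55631257 and Emx1 chr6:85137432-85154456. For Pou3f1, 99.97% of the exon bases also lie in a pseudogene entry of the same name, and for Cux2 5.17%. Since reads that fit more than 1 gene were left out and the annotation behind the counts is not stated, the absolute levels of these 2 genes are uncertain. No other gene overlapped exons of the 9 genes, and at most 0.572% of the 35-base windows of any of their transcripts occurred in another gene's transcript.

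The counts added up to 23475080 reads for CxH, 22057807 for MH, 20266394 for CxWT and 16380080 for MWT, and levels are given as reads per 1000000 aligned reads (RPM). Ids, the targeted gene, had 135 RPM in CxH and 354 RPM in CxWT, but 368 RPM in the library labelled MH and 155 RPM in the library labelled MWT. Its log2 ratio was -1.39 ± 0.024 (SE) in CxH vs. CxWT and 1.24 ± 0.025 in MH vs. MWT, so of the M libraries the one labelled as knock-out held more Ids reads. The area labels were also at odds with defining markers. Slc17a7, the vesicular glutamate transporter of cortical neurons, had 1359 RPM in CxH, 1240 in MH, 152 in CxWT and 108 in MWT. Slc17a6, its counterpart in the thalamus and midbrain, had 10.5 RPM in CxH, 21.8 in MH, 208 in CxWT and 205 in MWT. Of 13 measured transcription factors of thalamus, hypothalamus and midbrain, 12 were called lower in CxH than in CxWT and 11 lower in MH than in MWT, and 0 higher in either, and their summed level was 18.2 RPM in CxH, 18.3 in MH, 160.1 in CxWT and 122 in MWT. The factor Pax7 had 0 reads in CxH and En1 had 0 in MH. The libraries are named by their labels throughout. Since no pair is free of these contradictions, the ratios of the factors are given for all 6 pairs of libraries. These ratios can thus be read without any 1 library. Calls in the marker lists, and differences among upper or among deep layer factors, are given for CxH vs. CxWT and MH vs. MWT only.

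Across the 4 libraries, 8 of the 9 factors had their high levels in CxH and MH and their low levels in CxWT and MWT, and the counting intervals of the first pair lay above those of the second, as they did for 13.4% of all genes. Rorb was the exception. In CxH vs. CxWT, 8 of 9 factors were called higher and 0 lower, where a call needs both a p-value under 0.05 from a Poisson likelihood ratio test of the 2 libraries and a log2 ratio past 0.7 in either direction. Over all 12700 genes 9.46% were called higher and 11.5% lower. In MH vs. MWT again 8 of 9 factors were called higher and 0 lower, against 12.3% and 12.7% of all genes. After a correction for GC content and length 6 of 9 were still called higher in CxH vs. CxWT, without Cux2 and Pou3f1, and 7 of 9 in MH vs. MWT, without Cux2. The median log2 ratio of the 9 factors was 3.03 in CxH vs. CxWT and 3.34 in MH vs. MWT, and that of all genes was -0.09 and -0.07.

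**Figure D1:**
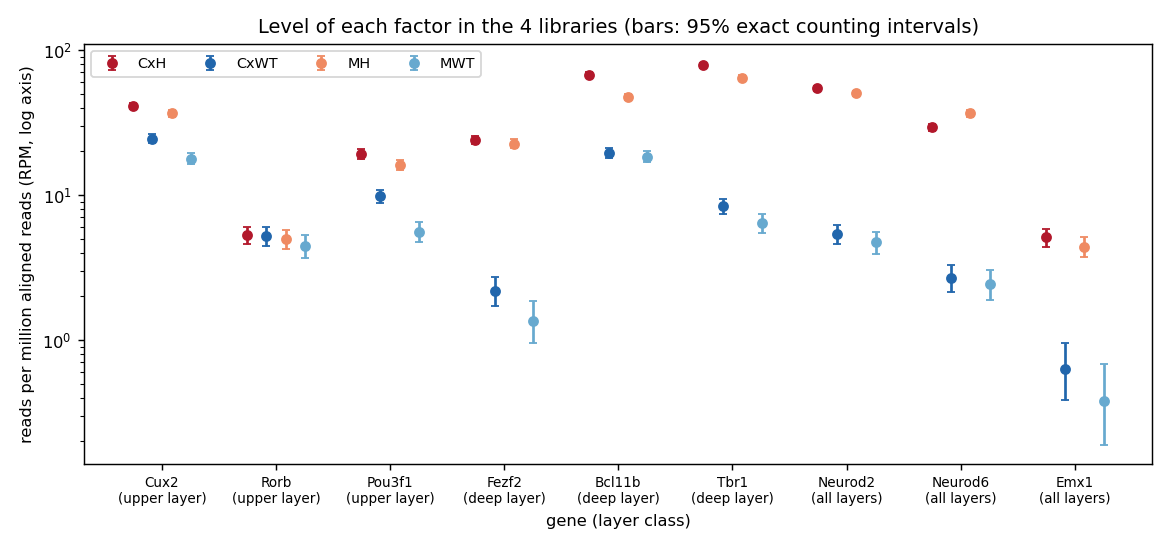
Level of each of the 9 factors in the 4 libraries, in RPM on a log axis, with 95% exact (Clopper-Pearson) counting intervals; 1 library per condition. For 8 factors the red and orange points (CxH, MH) lie above the blue ones (CxWT, MWT), from 1.50-fold for Cux2 in MH over CxWT to 17.9-fold for Fezf2 in CxH over MWT, while the 4 points of Rorb lie between 4.42 and 5.27 RPM.

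Among the deep layer factors, Fezf2, which directs the layer V neurons that project to the spinal cord, had 24.1 RPM (95% interval 22.6 to 25.7) in CxH, 22.6 (21.1 to 24.2) in MH, 2.17 (1.70 to 2.73) in CxWT and 1.35 (0.958 to 1.84) in MWT. Its level was thus close in CxH and MH and low in CxWT and MWT, where it rested on 73 and 39 reads. The ratio was 11.1-fold (95% interval 8.74 to 14.1) in CxH vs. CxWT and 16.8-fold (12.2 to 23.1) in MH vs. MWT, the 8th and the 14th highest log2 ratio of the table.

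Tbr1, the layer VI factor, had 78.3 RPM (75.5 to 81.2) in CxH, 64.2 (61.7 to 66.8) in MH, 8.36 (7.41 to 9.40) in CxWT and 6.36 (5.47 to 7.34) in MWT. It followed the same order as Fezf2, at a higher number of reads. Its ratio was 9.37-fold (8.29 to 10.6) in CxH vs. CxWT and 10.1-fold (8.69 to 11.7) in MH vs. MWT.

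Bcl11b, which acts downstream of Fezf2 in layer V and also marks striatal medium spiny neurons, had 67.5 RPM (65.0 to 70.2) in CxH, 47.4 (45.2 to 49.7) in MH, 19.5 (18.0 to 21.0) in CxWT and 18.3 (16.8 to 20.0) in MWT. The order of the libraries was that of Fezf2 and Tbr1, but the low libraries held a larger part of the high level. The ratio was 3.47-fold (3.18 to 3.78) in CxH vs. CxWT and 2.59-fold (2.35 to 2.85) in MH vs. MWT. Striatal markers were measured beside it. Of 12 genes of medium spiny neurons, 6 were called higher and 3 lower in each pair, and their summed level was 997 RPM in CxH, 810.4 in MH, 434 in CxWT and 415 in MWT. Adora2a, the adenosine receptor of striatopallidal neurons, had 67.3 RPM in CxH, 38.8 in MH, 16.8 in CxWT and 15.6 in MWT. The factors Isl1 and Six3 went the other way, with log2 ratios of -1.67 ± 0.22 and -1.07 ± 0.090 in CxH vs. CxWT and of -1.39 ± 0.20 and, not called, -0.53 ± 0.11 in MH vs. MWT. The part of striatal tissue in the Bcl11b values was not tested.

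Of the upper layer factors, Cux2 had 41.2 RPM (39.2 to 43.3) in CxH, 36.6 (34.6 to 38.6) in MH, 24.5 (22.8 to 26.2) in CxWT and 17.8 (16.3 to 19.4) in MWT. The intervals of all 4 libraries were separate, with CxH and MH above CxWT and MWT. The ratio was 1.68-fold (1.55 to 1.83) in CxH vs. CxWT and 2.06-fold (1.86 to 2.28) in MH vs. MWT.

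Pou3f1 had 19.2 RPM (17.8 to 20.6) in CxH, 16.0 (14.8 to 17.4) in MH, 9.76 (8.73 to 10.9) in CxWT and 5.56 (4.74 to 6.49) in MWT. Here too the 4 intervals were separate, and CxWT lay above MWT. The ratio was 1.96-fold (1.72 to 2.24) in CxH vs. CxWT and 2.88-fold (2.42 to 3.43) in MH vs. MWT.

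Rorb had 5.27 RPM (4.57 to 6.05) in CxH, 4.92 (4.24 to 5.69) in MH, 5.18 (4.44 to 6.00) in CxWT and 4.42 (3.69 to 5.26) in MWT. The 4 intervals overlapped one another, and the difference between any pair of libraries was within counting error. Corrected for GC content and length it was not in 3 of the 6 pairs, with log2 ratios of 0.37 ± 0.15 in CxH vs. CxWT, 0.41 ± 0.15 in CxH vs. MH and 0.66 ± 0.16 in CxH vs. MWT. The ratio was 1.02-fold (0.832 to 1.25) in CxH vs. CxWT and 1.11-fold (0.889 to 1.40) in MH vs. MWT. The Cux2 ratios lay above these intervals, but with a correction for GC content and length the log2 ratios of Cux2 and Rorb, at 0.52 and 0.37 in CxH vs. CxWT and 0.47 and 0.27 in MH vs. MWT, no longer separated. Rorb is also expressed in the thalamus and in other areas outside the cortex, whose share in its reads was not tested.

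The 3 factors of the whole projection neuron lineage had the same high and low libraries. Neurod2 had 54.3 RPM (52.0 to 56.7) in CxH, 50.2 (47.9 to 52.5) in MH, 5.35 (4.60 to 6.20) in CxWT and 4.70 (3.94 to 5.56) in MWT. Neurod6 had 29.2 RPM (27.5 to 31.0) in CxH, 36.5 (34.5 to 38.4) in MH, 2.68 (2.15 to 3.29) in CxWT and 2.42 (1.89 to 3.06) in MWT. Emx1, which marks the dorsal telencephalon in the embryo, had 5.09 RPM (4.40 to 5.86) in CxH, 4.39 (3.74 to 5.11) in MH, 0.625 (0.387 to 0.955) in CxWT and 0.380 (0.190 to 0.680) in MWT. For each of the 3 the levels in CxWT and MWT overlapped and lay far below those in CxH and MH, and only Neurod6 was higher in MH than in CxH. The ratios in CxH vs. CxWT were 10.1-fold (8.71 to 11.8) for Neurod2, 10.9-fold (8.80 to 13.5) for Neurod6 and 8.15-fold (5.20 to 12.8) for Emx1. In MH vs. MWT they were 10.7-fold (8.97 to 12.7), 15.1-fold (11.9 to 19.2) and 11.6-fold (6.27 to 21.3). Emx1 rested on 21 reads in CxWT and 11 in MWT, which makes its ratios the least exact of the 9.

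Next come the pairs that differ in both labels. In CxH vs. MWT 8 of 9 factors were called higher, against 15.6% of all genes, and the ratios of the called ones ran from 2.32-fold for Cux2 to 17.9-fold for Fezf2. Corrected for GC content and length, Cux2 fell from a log2 ratio of 1.21 to 0.54 there and lost its call, and Pou3f1 fell from 1.78 to 0.87. Rorb moved up from 0.25 to 0.66, above Cux2, and was not called. In MH vs. CxWT 7 of 9 were called higher, against 6.41% of all genes, with Neurod6 at 13.6-fold (11.0 to 16.9) the highest. Cux2, at 1.50-fold (1.37 to 1.63), stayed under the threshold there, and Rorb was at 0.951-fold (0.773 to 1.17). Pou3f1 was just past the threshold, at a log2 ratio of 0.72, and fell under it with that correction, at 0.57. These pairs share libraries with the pairs within a labelled area and are not independent of them.

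The pairs that by their labels set the areas against each other within a genotype gave smaller log2 ratios for 8 of the 9 factors, Rorb excepted. The comparison is with CxH vs. CxWT and MH vs. MWT. In CxH vs. MH 0 of 9 were called in either direction by the likelihood ratio test with its log2 threshold. Of all 12700 genes 309 (2.43%) were called higher and 135 lower. By the p-value alone 6 of the 9 passed, as did 59.1% of all genes. The log2 ratios ran from -0.32 ± 0.058 for Neurod6 to 0.51 ± 0.044 for Bcl11b, with a median of 0.17. In CxWT vs. MWT 1 of 9 was called higher, Pou3f1 at 1.75-fold (1.45 to 2.12), against 5.43% of all genes, and 4 passed the p-value alone, as did 61.7% of all genes. All 9 ratios were above 0 there, with a median log2 ratio of 0.39. Corrected for GC content and length, Bcl11b (-0.042), Neurod2 (-0.24) and Emx1 (-0.042) lay below 0, Pou3f1 fell from 0.81 to 0.22 and was not called, and the calls among all genes that were higher went from 690 to 225. Fezf2, as an example, differed by 1.06-fold (0.970 to 1.17) in CxH vs. MH and by 1.61-fold (1.09 to 2.38) in CxWT vs. MWT.

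**Figure D2:**
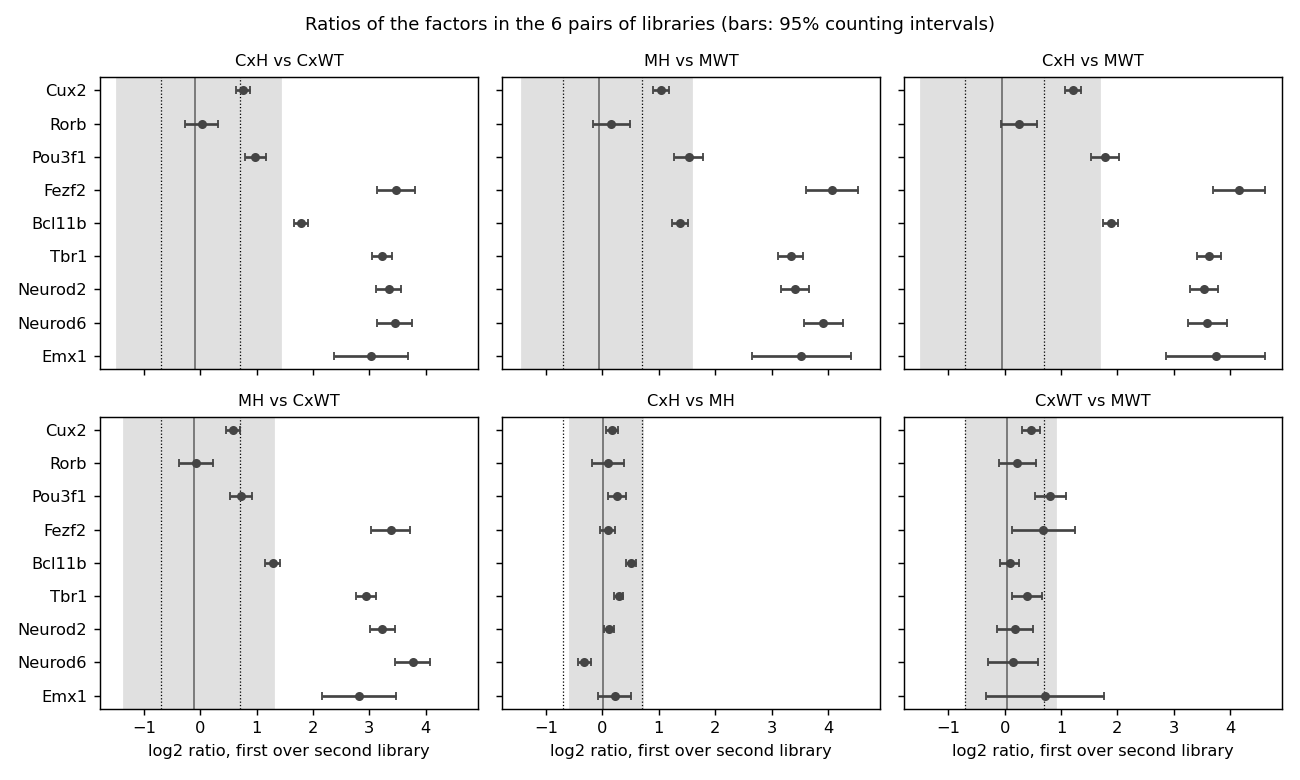
Log2 ratios of the 9 factors in the 6 pairs of libraries, with 95% counting intervals; the grey band holds the central 95% of all 12700 genes, the grey line is their median and the dotted lines mark 0.7 in either direction. Fezf2, Tbr1, Neurod2, Neurod6 and Emx1 lie to the right of the band in the 4 pairs that set CxH or MH over CxWT or MWT, and all 9 lie between the dotted lines in CxH vs. MH, from -0.32 for Neurod6 to 0.51 for Bcl11b.

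The ratio within the Cx labels and the ratio within the M labels differed beyond counting error for 5 of the 9 factors. They did so for 57.5% of all genes, so the count of factors was near the background. The ratio within M is compared with that within Cx below. It was larger in M for Pou3f1, by 0.55 ± 0.16 on the log2 scale, for Cux2 by 0.29 ± 0.097, for Fezf2 by 0.60 ± 0.29 and for Neurod6 by 0.47 ± 0.24. For Bcl11b it was smaller in M, with a difference of -0.42 ± 0.095. Corrected for GC content and length, Cux2 turned the other way, at 0.52 within Cx and 0.47 within M, and the values of Pou3f1 came closer, at 0.65 and 0.80. For Tbr1, Neurod2, Emx1 and Rorb the intervals of the difference spanned 0. With 1 library per condition the variation between pools is not part of these errors.

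For each pair of the 6 layer factors, with Pou3f1 counted as upper, the difference of their log2 ratios was taken, a quantity from which the scaling of the libraries cancels. The interval left out 0 in 13 of 15 pairs in CxH vs. CxWT and in 14 of 15 in MH vs. MWT. Of the 9 pairs that set an upper against a deep layer factor, 9 left out 0 in CxH vs. CxWT and the deep layer factor had the higher ratio in each, by 0.82 (Bcl11b over Pou3f1) to 3.44 (Fezf2 over Rorb). In MH vs. MWT it was 8 of 9, and the 1 that did not was Pou3f1 and Bcl11b, whose difference was 0.16 with an interval from -0.13 to 0.44 and Pou3f1 the higher. Corrected for GC content and length, that order turned, with Bcl11b at 1.16 and Pou3f1 at 0.80, and the interval left out 0. Uncorrected, 8 of 9 left out 0 in CxH vs. MWT and 9 of 9 in MH vs. CxWT, with the deep layer factor higher. In CxH vs. MH 3 of 9 did, with Bcl11b the higher in each. In CxWT vs. MWT 3 of 9 did, and there the upper layer factor had the higher ratio. Pou3f1 exceeded Bcl11b by 0.72 and Tbr1 by 0.42, and Cux2 exceeded Bcl11b by 0.37. With an assumed coefficient of variation of 0.2 between libraries, Bcl11b no longer separated from Cux2 or Pou3f1 in CxH vs. CxWT or from Cux2 in MH vs. MWT, while Fezf2 and Tbr1 still exceeded all 3 upper layer factors and Bcl11b exceeded Rorb. Members of the same layer group differed as well, in 4 of 6 pairs in CxH vs. CxWT and in 6 of 6 in MH vs. MWT, and whether layer or gene sets these differences was not tested. These counts fell to 2 of 6 and 3 of 6 with an assumed variation of 0.2, and the correction for GC content and length left 2 of 6 and 5 of 6. Fezf2 exceeded Bcl11b by 1.68 ± 0.19 in CxH vs. CxWT and by 2.70 ± 0.25 in MH vs. MWT, although both mark layer V. Tbr1 exceeded Bcl11b by 1.43 ± 0.11 and by 1.97 ± 0.13 in these pairs. Fezf2 and Tbr1 did not separate in CxH vs. CxWT, where their difference was 0.24 with an interval from -0.14 to 0.63, and differed by 0.73 ± 0.26 in MH vs. MWT, a difference that spanned 0 with an assumed variation of 0.1 or 0.2. Cux2 and Pou3f1 differed by 0.22 in CxH vs. CxWT, with Pou3f1 the higher and an interval that just spanned 0.

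**Figure D3:**
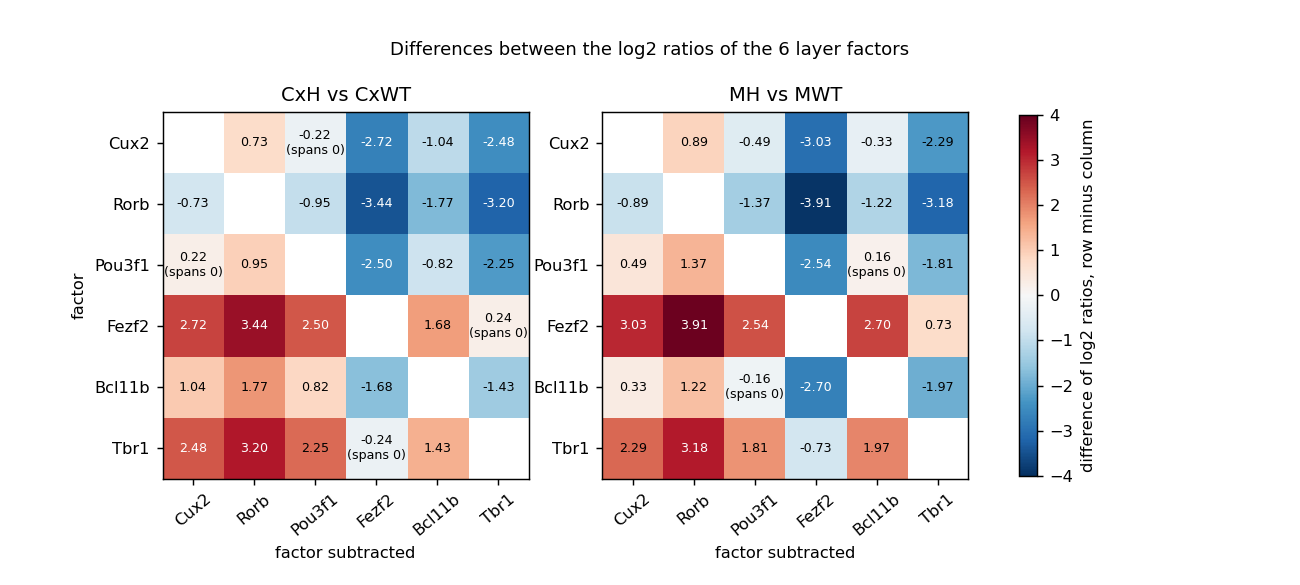
Difference between the log2 ratios of each pair of layer factors, row minus column, in CxH vs. CxWT (left) and MH vs. MWT (right); red means that the row factor had the higher ratio, and cells whose 95% counting interval spans 0 say so. The rows of Fezf2 and Tbr1 are red against the 3 upper layer factors in both panels, by 1.81 to 3.91.

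Levels can be compared between genes only per length, for which RPM per kilobase of the longest coding transcript (RPKM) were used. In CxH the order from the top was Tbr1 (19.7 RPKM), Neurod2 (17.3), Neurod6 (13.6), Fezf2 (10.4), Bcl11b (8.33), Pou3f1 (6.38), Cux2 (6.09), Emx1 (3.26) and Rorb (0.567), and only Pou3f1 and Cux2 overlapped as neighbours. In MH the levels of Neurod6 (16.9 RPKM), Tbr1 (16.1) and Neurod2 (16.0) did not separate from neighbour to neighbour, nor did those of Bcl11b (5.85), Cux2 (5.41) and Pou3f1 (5.34). In CxWT the upper layer factors Cux2 (3.62 RPKM) and Pou3f1 (3.25) came first and overlapped, ahead of Bcl11b (2.40) and Tbr1 (2.10). In MWT Cux2 (2.63 RPKM) overlapped Bcl11b (2.26), which overlapped Pou3f1 (1.85). Tbr1, first in CxH and second in MH, was thus in the 4th place in both CxWT and MWT, and Fezf2 went from the 4th place in CxH and MH to the 7th in CxWT and MWT. Rorb was last in CxH and MH and overlapped Emx1, the last, in CxWT and MWT. The places of Pou3f1 and Cux2 carry the uncertainty from the pseudogene entries named above.

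**Figure D4:**
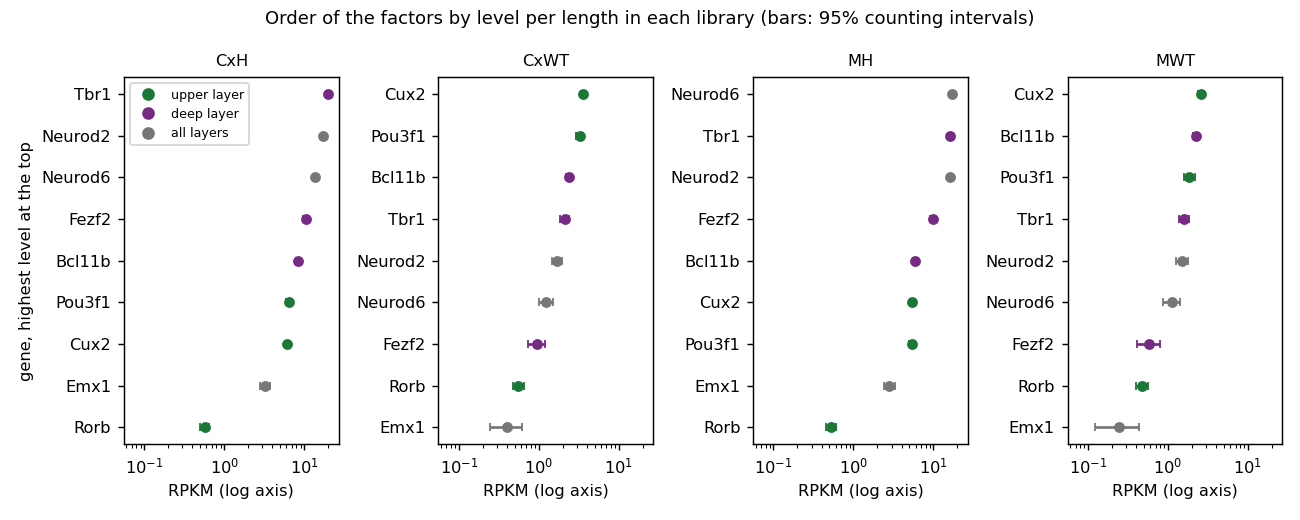
The 9 factors ordered by level per length in each library, in RPKM on a log axis shared by the panels, with 95% counting intervals and colours for the layer class. Cux2 stands at the top in CxWT and MWT and in the lower part in CxH and MH.

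Other genes of cortical neurons were compared in the same pairs. Of all genes, 9.46% were called higher and 11.5% lower in CxH vs. CxWT, and 12.3% and 12.7% in MH vs. MWT. The list counts here and in the paragraphs that follow stand beside these shares. Of 27 measured further transcription factors of cortical neurons, 14 were called higher and 1 lower in CxH vs. CxWT, and 18 higher and 1 lower in MH vs. MWT, with median log2 ratios of 0.74 and 1.13. Mef2c, a factor of neuronal maturation, was higher by 2.03 ± 0.038 in CxH vs. CxWT and 1.82 ± 0.038 in MH vs. MWT. Foxp2, which is on in layer VI and also in striatum and thalamus, was the 1 gene called lower, with log2 ratios of -1.05 ± 0.079 and -1.37 ± 0.082. Zfpm2, a factor of deep layer neurons, was not called, with -0.40 ± 0.10 and -0.19 ± 0.11.

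Markers of layers that are not transcription factors were mixed. Of 8 such upper layer genes, 2 were called higher and 0 lower in CxH vs. CxWT, and 3 and 0 in MH vs. MWT. The called ones in CxH vs. CxWT were Lamp5, a lysosome-associated membrane protein of neurons, with a log2 ratio of 2.36 ± 0.047, and Plxnd1, a semaphorin receptor, with 2.05 ± 0.061. Mdga1 and Cdh13, both cell adhesion proteins, were each at -0.45 in CxH vs. CxWT and at 0.22 and 0.28 in MH vs. MWT, and were not called. Of 10 measured deep layer genes, 4 were called higher and 2 lower in CxH vs. CxWT, and 4 and 3 in MH vs. MWT. Cplx3, a complexin of the subplate, and Crym, a thyroid hormone binding protein, were higher by 2.02 ± 0.14 and 1.84 ± 0.070 in CxH vs. CxWT. Nxph4, a neurexophilin, was lower, with -2.59 ± 0.18 in CxH vs. CxWT, and so was the cadherin Cdh18 with -0.97 ± 0.10.

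Of the 4 genes of glutamatergic projection neurons, Slc17a7, Camk2a and Nrgn were called higher in both pairs and Slc17a6 lower. The log2 ratio of Slc17a7 was 3.16 ± 0.021 in CxH vs. CxWT and 3.52 ± 0.027 in MH vs. MWT, those of the calmodulin-binding protein Nrgn were 2.83 ± 0.031 and 3.29 ± 0.045, and those of the kinase Camk2a were 2.26 ± 0.011 and 2.38 ± 0.013. Slc17a6 went the other way, with -4.30 ± 0.074 and -3.23 ± 0.054. Of 7 pan-neuronal genes 1 was called higher and 0 lower in each pair. It was Rbfox3, the RNA-binding protein NeuN, with 1.43 ± 0.031 and 1.61 ± 0.041, whereas Map2, a cytoskeletal protein, was at -0.09 and -0.17. The summed level of the 7 was 3549 RPM in CxH, 3516 in MH, 3294 in CxWT and 3494 in MWT.

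Lists of other cell types were counted in the same way. Of 12 measured interneuron genes 5 were called higher and 1 lower in CxH vs. CxWT, and 5 and 3 in MH vs. MWT, with Vip higher by 1.67 ± 0.11 and Gad2, which makes GABA, at -1.22 ± 0.026 in CxH vs. CxWT. Of 6 measured hippocampal genes, 2 were called higher and 1 lower in CxH vs. CxWT, and 4 and 0 in MH vs. MWT. Prox1, the factor of dentate granule cells, had 9.64 RPM in CxH, 13.3 in MH, 20.3 in CxWT and 14.7 in MWT. Fibcd1, Zbtb20 and Grik4 went the other way, with log2 ratios of 0.46, 0.24 and 0.14 in CxH vs. CxWT, none called. In MH vs. MWT they were at 1.25, 1.46 and 0.25, with Fibcd1 and Zbtb20 called higher. Of 8 oligodendrocyte genes, 6 were called lower in CxH vs. CxWT and 4 in MH vs. MWT, and 0 higher; their summed level was 4635 RPM in CxH, 4818 in MH, 8879 in CxWT and 7121 in MWT. Astrocyte genes had 1 called higher and 1 lower of 6 in CxH vs. CxWT, and 0 and 1 in MH vs. MWT. Microglial genes were called higher in 3 of 6 in CxH vs. CxWT and lower in 2 of 6 in MH vs. MWT, and endothelial genes were called higher in 2 of 5 in CxH vs. CxWT and in neither direction in MH vs. MWT. The part of tissue composition in the levels of the 9 factors was not tested.

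**Figure D5:**
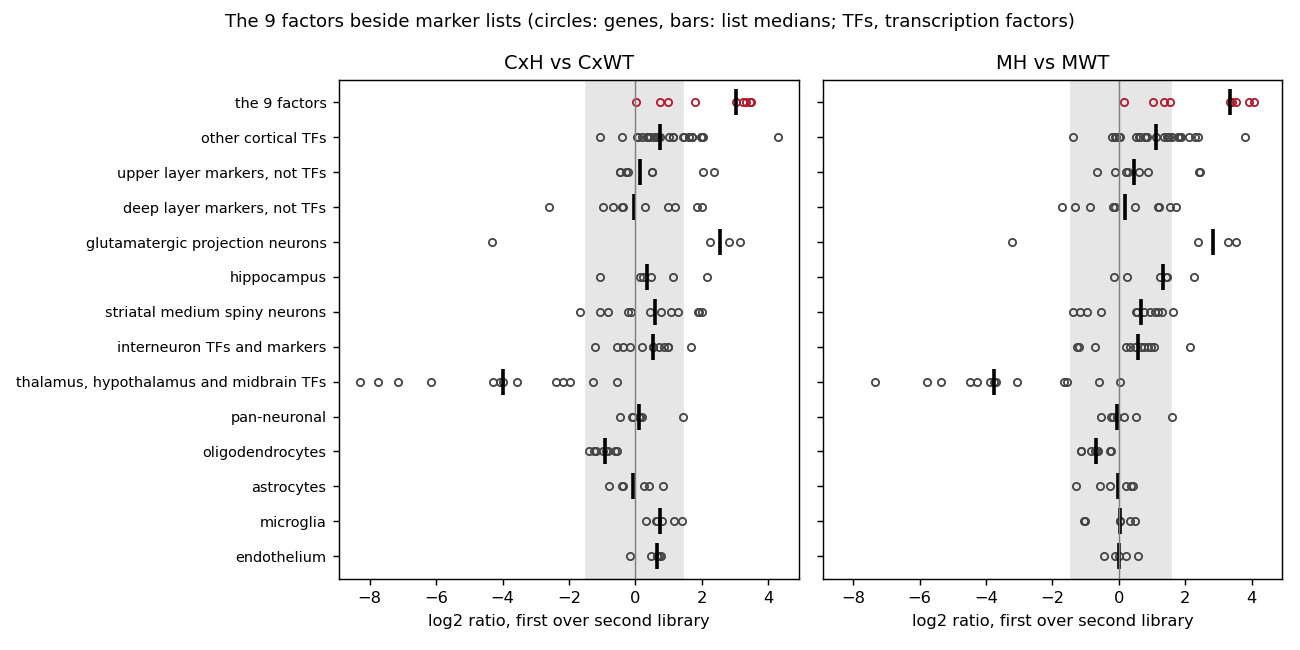
Log2 ratios of the 9 factors (red) and of the genes of 13 marker lists (grey) in CxH vs. CxWT (left) and MH vs. MWT (right), with bars at each list's median and a grey band for the central 95% of all genes. The 9 factors have a median of 3.03 and 3.34, and the transcription factors of thalamus, hypothalamus and midbrain have one of -4.00 and -3.76.

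The pattern of a factor over the 4 libraries can be set beside that of every other gene. The distance used was that between log2 RPM values, each centred on the gene's own mean, over 11995 genes with at least 100 reads in a library; it rests on 4 points that share their libraries and is a description only. The nearest gene to Tbr1 was Slc17a7 (distance 0.14), followed by Neurod2 (0.21) and Emx1 (0.23), so 2 of its 3 neighbours were other members. Neurod2 had Tbr1, Slc17a7 and the meiosis gene Mei1 nearest, and Emx1 had Slc17a7, the potassium channel gene Kcnh3 and Tbr1. Neurod6 had Neurod2 (0.43), Fezf2 (0.49) and Slc17a7 (0.53), at larger distances. Fezf2 lay nearest to Hkdc1, a hexokinase-like gene (0.24), Dkkl1 and Psrc1. The other 4 factors had no member and no Slc17a7 among their 3 nearest genes. They were Otud3, H2-DMa and Spred2 for Cux2, Git1, Csrnp1 and Plppr2 for Pou3f1, and Arfgap2, Grip1 and Trex1 for Rorb. Those of Bcl11b included the calcium channel subunit gene Cacnb3 and Oaf. Between members the smallest distance was that of Tbr1 and Neurod2 (0.21) and the largest that of Rorb and Fezf2 (3.69).

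The ratios ran with the GC content of genes. Among genes reaching 100 reads in all 4 libraries, the rank correlation between GC content and log2 ratio was 0.46 in CxH vs. CxWT, 0.49 in MH vs. MWT, 0.16 in MH vs. CxWT, 0.58 in CxH vs. MH, 0.63 in CxWT vs. MWT and 0.69 in CxH vs. MWT, over genes, which are not independent replicates. The GC content of the longest coding transcript was 41.6% for Rorb and 41.9% for Neurod6, between 50.1% and 58.7% for Bcl11b, Tbr1, Fezf2, Cux2 and Neurod2, 61.5% for Pou3f1 and 66.8% for Emx1. After a correction for GC content and length, the log2 ratio of Cux2 fell from 0.75 to 0.52 in CxH vs. CxWT and from 1.04 to 0.47 in MH vs. MWT, and it was no longer called in either. Pou3f1 moved from 0.97 to 0.65 in CxH vs. CxWT, under the threshold, and from 1.53 to 0.80 in MH vs. MWT, still called. Rorb moved to 0.37 and 0.27 and remained uncalled. The other 6 were still called, at corrected log2 ratios of 1.78 (Bcl11b) to 3.84 (Neurod6) in CxH vs. CxWT and 1.16 (Bcl11b) to 4.39 (Neurod6) in MH vs. MWT. Of these, Emx1 fell from 3.53 to 2.64 in MH vs. MWT. In the pair CxH vs. MWT it fell from 3.74 to 2.56 and Neurod2 from 3.53 to 2.83, and Neurod6 rose from 3.59 to 4.28.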

How the data were processed

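RNA of 4 libraries, 1 per condition, was sequenced by the authors on a SOLiD 3 Plus instrument. They aligned reads to NCBI37/mm9 with PASS, allowing 2 mismatches and no gap, dropped genes with coverage of 50% of their length or less, and deposited raw counts of reads aligned to a single gene. The annotation used for counting is not given in the sources used here, and every column of the table was used.

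The 9 members and the marker lists were chosen with earlier results of these data known. Symbols were taken from RefSeq through the Entrez identifier (12690 of 12700 genes), and positions, coding transcript length and GC content from GENCODE vM1 on the same build (12277 genes, 96.7%). RPM and RPKM used the study's aligned reads per library, and a floor of 3 reads stood at 0.0779 RPM in CxH, 0.0803 in MH, 0.0892 in CxWT and 0.104 in MWT. A count of 0 was set to 1 for a log2 ratio only. The likelihood ratio test on Poisson counts, with the authors' thresholds (0.05 for the p-value, 0.7 for the log2 ratio in either direction), was run on all genes for 6 pairs of libraries. Intervals are at 95%, exact Clopper-Pearson for levels and from Poisson errors for ratios. Named genes are the members, Ids, Slc17a7, Slc17a6, in each list the 2 highest and 2 lowest ratios of CxH vs. CxWT among genes that reach 100 reads in CxH or CxWT, and the 3 genes nearest to each member in profile. Pax7, printed for its count of 0, was chosen after its values were seen. Some genes that this rule names are not reported here.

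Alternatives were scaling by column totals, by TMM factors or by DESeq2 size factors, a minimum of 100 reads in both libraries, a log2 threshold of 1, Benjamini-Hochberg adjustment, edgeR's exact test with assumed variation of 0.1 or of 0.2, adding 0.5 to each count, and a correction for GC content and length. The tests behind the calls were run on simulated Poisson counts, and the correction on a simulated GC trend. Neither held variation between pools, so that limit was not examined. Promoter windows were RefSeq sequences. R 4.3.3 with DESeq2 1.42.0 and edgeR 4.0.16, and Python 3.11.15 with scipy 1.17.1, pandas 2.3.3, numpy 2.4.6 and matplotlib 3.10.9 were used.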

Additional observations from a re-analysis of the deposited data

Results flagged for a closer look

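Scaled by aligned reads, Neurod6 was the 1 factor whose ratio between the labelled areas had opposite signs in the labelled genotypes. Area and genotype here are labels only, and the Ids and marker levels above were at odds with them. Its log2 ratio was -0.32 ± 0.058 (SE) in CxH vs. MH, with 1124 and 1362 reads, and 0.15 ± 0.23 in CxWT vs. MWT, with 90 and 70 reads. The difference between these ratios was -0.47 ± 0.24, with a 95% counting interval from -0.93 to -0.0023, and it was not tested against the variation between pools, since each condition had 1 library. Among the other 8 factors both ratios were above 0 on this scale. With column totals Bcl11b had opposite signs as well (0.46 and -0.0044). Corrected for GC content and length so did Bcl11b (0.58 and -0.042) and Fezf2 (-0.046 and 0.49), Neurod2 and Emx1 lay below 0 in both, and Neurod6 was at -0.098 and 0.45.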

How the results depend on the processing

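Of 525 ratios of single factors under the alternatives, 503 kept their direction and their side of the threshold. With at least 100 reads required in both libraries, 5 factors instead of 8 were called in CxH vs. CxWT, MH vs. MWT and CxH vs. MWT, and 4 instead of 7 in MH vs. CxWT, because Fezf2, Neurod6 and Emx1 had under 100 reads in CxWT and MWT. In CxWT vs. MWT the 1 call, Pou3f1, was lost with a log2 threshold of 1, with an assumed variation of 0.2 and with the correction for GC and length, which left 0 calls each. That correction reversed Fezf2 (-0.046), Neurod2 (-0.047) and Emx1 (-0.080) in CxH vs. MH, and Bcl11b (-0.042), Neurod2 (-0.24) and Emx1 (-0.042) in CxWT vs. MWT, none of them called; the cause was not tested. Column totals as scaling reversed Bcl11b in CxWT vs. MWT (-0.0044). TMM and DESeq2 factors reversed Rorb in MH vs. CxWT (0.036 and 0.037), where they moved the median of all genes by 0.11. A log2 threshold of 1 also ended the calls of Cux2 and Pou3f1 in CxH vs. CxWT and of Pou3f1 in MH vs. CxWT, and an assumed variation of 0.2 those of Cux2 in CxH vs. CxWT and of Pou3f1 in MH vs. CxWT. The total counts of layer factor pairs stayed within 1.5 times of 13 and 14, from 9 to 13 in CxH vs. CxWT and from 10 to 14 in MH vs. MWT; an assumed variation of 0.2 lost Bcl11b against Cux2 and Pou3f1 in CxH vs. CxWT, and 0.1 already lost Bcl11b against Cux2 in MH vs. MWT.

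Over all genes, the share of calls that were higher went from 45.2% to 56.0% with TMM in CxH vs. CxWT, from 41.9% to 54.2% in MH vs. CxWT, and with column totals from 69.6% to 58.4% in CxH vs. MH, from 72.0% to 55.2% in CxWT vs. MWT and from 50.8% to 39.1% in CxH vs. MWT. No paired analysis was run, although the Cx and M tissue of a genotype came from the same brains. Each condition had 1 library, and the conditions share 1 replicate number. An additive fit of area and genotype over the 4 libraries was not run. Depth limits Emx1 most, with 11 reads in MWT.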
